A study of Homo sapiens with 6 samples.

Results

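The nuclear-encoded subunits of oxidative phosphorylation were followed in BT474, a line of breast cancer cells that carry the estrogen receptor and HER2, made to overexpress either of 2 variants of the long noncoding RNA NR2F1-AS1. Probes were chosen by gene name and not by their values, although earlier results of these data were known when the choice was made. All names beginning with NDUFA, NDUFB, NDUFS, NDUFV or NDUFC and a digit, the 4 SDH genes, the UQCR genes, CYC1, the COX4 to COX8 genes and the ATP5 genes were taken, and COX4I1 and COX4I2, which the letter pattern does not reach, were added by name. This gave 126 probes under 90 gene names, of 58201 probes and 43317 names on the array. RNA was measured on 6 one-color Agilent arrays, with 2 arrays (A and B) of each population. Control BT474 cells carried an empty pcDNA3.1 plasmid, BT474-Var1 cells carried pcDNA3.1 with variant 1, the long form, and BT474-Var4 cells carried pcDNA3.1 with variant 4, the short form. By the study's methods, variant 1 was in pcDNA3.1/Hygro(+) and variant 4 in pcDNA3.1-P2A-eGFP, and each plasmid also served empty as a control. Which empty plasmid the Control arrays carried is not stated. Variant and plasmid backbone therefore cannot be told apart. All 3 populations were kept in RPMI-1640 with serum and, as the study describes, went through nucleofection and antibiotic selection. The variant cells were stable transfectants from surviving colonies, so that a group is a selected population. No source states that the A and B arrays came from separate cultures, and p-values here measure only the spread between these arrays, which may be technical.

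In oxidative phosphorylation, complexes I and II pass electrons from NADH and succinate to ubiquinone, complex III passes them on to cytochrome c, and complex IV (cytochrome c oxidase) hands them to oxygen. Complexes I, III and IV pump protons across the inner mitochondrial membrane, and complex V, the ATP synthase, uses the return flow to make ATP. Most subunits are encoded in the nucleus and a few core subunits in mitochondrial DNA. When oxygen is short, cells are known to exchange some complex IV subunits: COX4I2 for COX4I1, and NDUFA4L2, a relative of the complex IV subunit NDUFA4, is strongly induced.

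Levels below are log2 intensities less the 75th percentile of the same array, so that 0 is that percentile and a difference of 1 is 2-fold. Intensities of different probes cannot be compared. A probe was tested if, in 1 group or more, both arrays had it well above background. Of the 126 probes, 118 were tested, 115 were well above background on all 6 arrays, 7 on none, and the single NDUFA4L2 probe on 1 array. The tested probes covered 83 subunit genes: 36 of complex I, 4 of complex II, 9 of complex III, 16 of complex IV and 18 of complex V. NDUFA4 was counted with complex IV, to which it belongs in current use. The ATP5 names include ATP5S and ATP5SL, now called DMAC2L and DMAC2, and ATP5L2, which are not among the classical ATP synthase subunits. The remaining names were 3 antisense RNAs with 8 probes and the pseudogene UQCRBP1, which was not detected. Each gene is represented by its brightest tested probe. NDUFA4L2, COX7A1, COX7B2 and UQCRBP1 had no tested probe.

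The arrays bore out the labels. One NR2F1-AS1 probe read -0.42 and -0.51 on the BT474-Var1 arrays and -5.73 or lower on the others, and another read 1.67 and 1.50 on the BT474-Var4 arrays and -4.25 or lower on the others. All 8 luminal breast and BT474 markers were well above background on all 6 arrays. Among 5 fibroblast markers, COL1A2 and COL3A1 were detected on no array, and COL1A1 rose in both variants (0.34 in BT474-Var1 and 1.03 in BT474-Var4). DCN was well above background on the BT474-Var4 arrays alone and was called higher there. It was tested only because of those arrays, so that the size of its rise is not known. In BT474-Var1 cells 3 of the luminal markers rose (KRT8, KRT19 at 0.62 and ERBB2) and 2 fell (EPCAM by 0.66 and CDH1 by 0.47), as did VWF, an endothelial marker (by 0.87). In BT474-Var4 cells ESR1 and the adipocyte marker PLIN1 were called lower. PLIN1 is a dim probe that was not well above background on all 6 arrays. All 4 adipocyte and muscle markers read -2.52 or lower on every array. No leukocyte marker was called against Control, and the muscle markers MYH7 and CKM were well above background on no array. Their part in the results was not tested. Between 47.6% and 57.5% of probes were well above background per array, the lowest share on BT474-Var4 B. The SD between the replicate arrays of a group was 0.059 to 0.075 log2 units over the 83 genes and 0.20 to 0.249 over all tested probes. All arrays were on the same slide, with both BT474-Var1 arrays in column 2 and the others in column 1, so that slide column and variant 1 cannot be told apart. The Control arrays were in rows 1 and 2 and the arrays of both variants in rows 3 and 4. Slide row and the difference of either variant from Control cannot be told apart either.

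In BT474-Var1 cells, the subunit genes of all 5 complexes had lower median levels than in Control BT474 cells. Of the 83 genes, 36 fell and 1, NDUFB4, rose at an adjusted p under 0.05 (limma, Benjamini-Hochberg over all 31858 tested probes), which is 43.4% lower and 1.2% higher, against 20.3% lower and 14.1% higher among all tested probes (34.4% in either direction). The median log2 difference over the 83 genes was -0.202, and over all tested probes it was -0.044. Relative to the Control mean of each gene, the median gene stood at 0.014 and -0.014 in Control and at -0.185 and -0.205 in BT474-Var1 cells. No tested member differed 2-fold or more in any comparison, where 3.94% of all tested probes were called at 2-fold or more in BT474-Var1 cells. The probes of the subunit genes were mostly bright: 66 of the 83 (79.5%) had a mean level of 5 or more, against 6.69% of tested probes. Over all 2132 probes at that level the median difference was -0.13, with 35% called lower. After quantile normalization, which removes such intensity-dependent shifts, the median over the 83 genes was -0.078, 16 genes fell and 3 rose, and all 16 were among the 36. These were 19.3% lower and 3.61% higher, beside 18% lower, 14.4% higher and a median of -0.05 over all tested probes under the same scaling. The share lower was then near the background, and the share higher was below it. Under this scaling, tested probes with a mean level of 5 to 7 had a median of -0.025, and those at 7 or more had -0.011. Whether the members differ from probes of like brightness was not tested. The call count also depended on single arrays: of all 118 tested probes 52 were called (4 higher, 48 lower), and 8 without Control A, 10 without Control B, 21 without BT474-Var1 A and 19 without BT474-Var1 B.

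**Figure D1:**
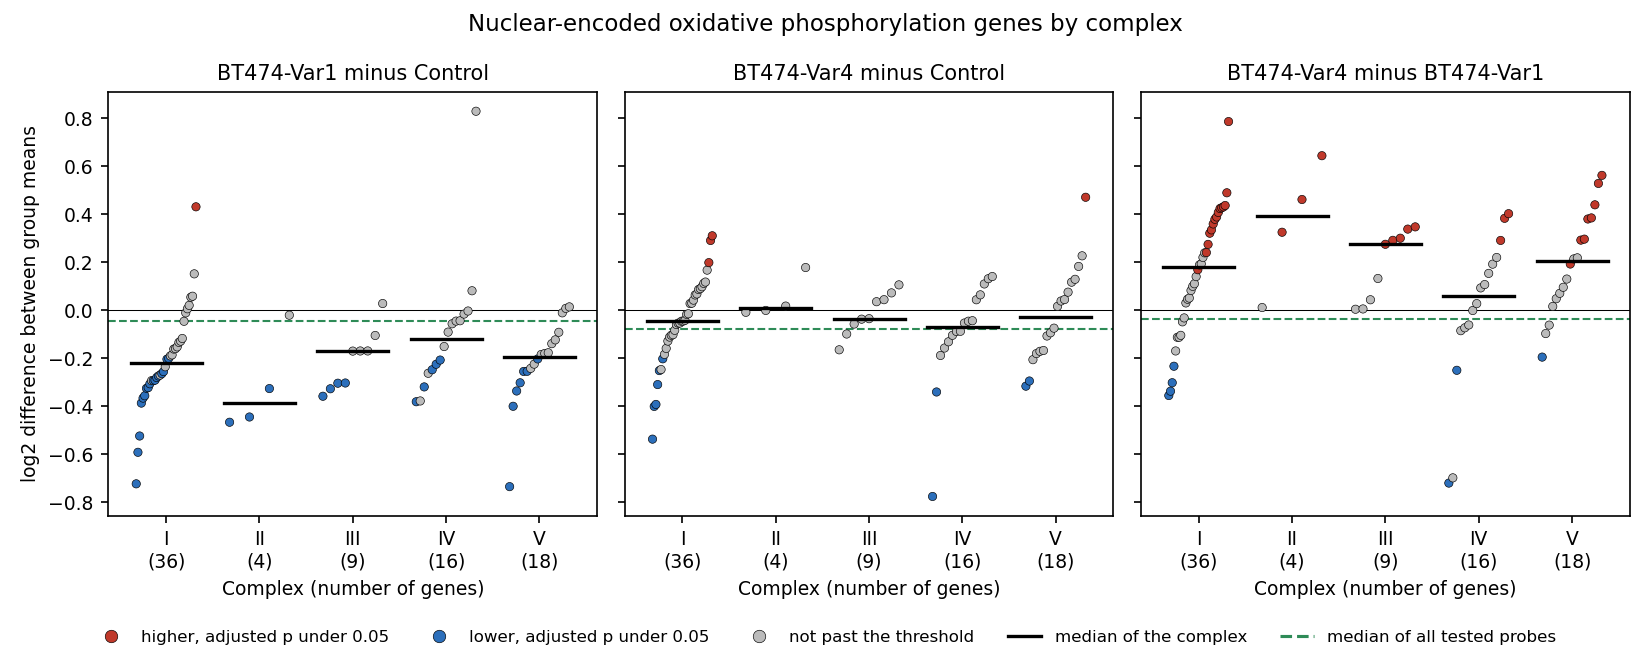
Log2 difference of each of the 83 genes (points, sorted within each complex) for BT474-Var1 minus Control, BT474-Var4 minus Control and BT474-Var4 minus BT474-Var1, 2 arrays per group. Bars are medians of the complex and the dashed line is the median of all 31858 tested probes. In BT474-Var1 cells all 5 medians lie below 0, from -0.385 for complex II to -0.12 for complex IV.

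Complex I, the NADH dehydrogenase, had 17 of 36 genes lower and NDUFB4 higher in BT474-Var1 cells, with a median difference of -0.219. After quantile normalization 6 were lower and 2 higher, with a median of -0.078. NDUFC2, an accessory subunit of the membrane arm, read 5.62 and 5.58 in Control, 5.05 and 4.98 in BT474-Var1 and 5.51 and 5.50 in BT474-Var4 cells. It fell by 0.59 in BT474-Var1 cells (adjusted p = 0.00494), although its other probe differed by -0.06 and was not called. NDUFS5, another accessory subunit, fell by 0.52 (adjusted p = 0.00496). NDUFB4, an accessory subunit of the membrane arm, went the other way, with 8.05 and 8.09 in Control, 8.50 and 8.50 in BT474-Var1 and 8.25 and 8.28 in BT474-Var4 cells. It rose by 0.43 in BT474-Var1 cells (SE 0.05, adjusted p = 0.00674). The call of NDUFC2 held under every alternative that was run. That of NDUFB4 was lost without the filter on dim probes, where its adjusted p was 0.0602.

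Complex II, succinate dehydrogenase, which also works in the tricarboxylic acid cycle, had the lowest median, -0.385, on only 4 genes (-0.253 after quantile normalization). SDHB, the iron-sulfur subunit, read 4.64 and 4.63 in Control, 4.23 and 4.11 in BT474-Var1 and 4.83 and 4.80 in BT474-Var4 cells. It fell by 0.47 in BT474-Var1 cells (SE 0.06, adjusted p = 0.00932). SDHD, a membrane anchor, read 3.97 and 4.01, then 3.54 and 3.56, then 4.00 and 4.03 in the same order of groups, and fell by 0.44 (adjusted p = 0.00667). The flavoprotein SDHA fell by 0.33 (adjusted p = 0.0114) and the same call was made on its other 3 probes. The other membrane anchor, SDHC, did not follow: its levels were 5.92 and 5.90 in Control and 5.90 and 5.89 in BT474-Var1 cells, a difference of -0.02 (adjusted p = 0.809), and none of its other 3 probes was called. The 3 falls were kept after quantile normalization. That of SDHB was lost without Control A, without Control B and with no filter on dim probes, with adjusted p up to 0.0648 over the alternatives.

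Complex III, the cytochrome bc1 complex, had 4 of 9 genes lower in BT474-Var1 cells (CYC1, UQCR10, UQCRB and UQCRH) and a median of -0.17, and 2 lower with a median of -0.066 after quantile normalization. CYC1, the cytochrome c1 subunit, read 5.65 and 5.59 in Control, 5.22 and 5.31 in BT474-Var1 and 5.52 and 5.61 in BT474-Var4 cells, a fall of 0.36 (adjusted p = 0.018) that was not called after quantile normalization (adjusted p = 0.0818, range over the alternatives 2.22e-05 to 0.103). UQCRB, an accessory subunit, fell by 0.33 on its brighter probe (adjusted p = 0.0106) and rose by 0.43 on the other (adjusted p = 0.0275), so that its direction is unsettled. The core proteins UQCRC1 and UQCRC2 were not called, at 0.03 and -0.17.

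In complex V, 7 of 18 genes fell in BT474-Var1 cells and the median was -0.193, with 4 lower and a median of -0.075 after quantile normalization. ATP5B, the catalytic beta subunit, read 7.10 and 7.04 in Control, 6.30 and 6.37 in BT474-Var1 and 6.77 and 6.78 in BT474-Var4 cells. The 3 groups did not overlap, and the fall of 0.73 in BT474-Var1 cells (SE 0.06, adjusted p = 0.00396), or 1.66-fold, held under every alternative that was run. ATP5A1, the alpha subunit, read 7.20 and 7.17, 6.78 and 6.78, and 7.27 and 7.36, and fell by 0.40 (adjusted p = 0.00996). Subunit c, which forms the membrane ring, is made from 3 genes with the same mature protein. ATP5G1 fell by 0.25 (adjusted p = 0.0267) and ATP5G3 by 0.30 (adjusted p = 0.0264), both not called after quantile normalization, and ATP5G2 was at 0.01 (adjusted p = 0.856). The 3 genes were not tested against each other.

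**Figure D2:**
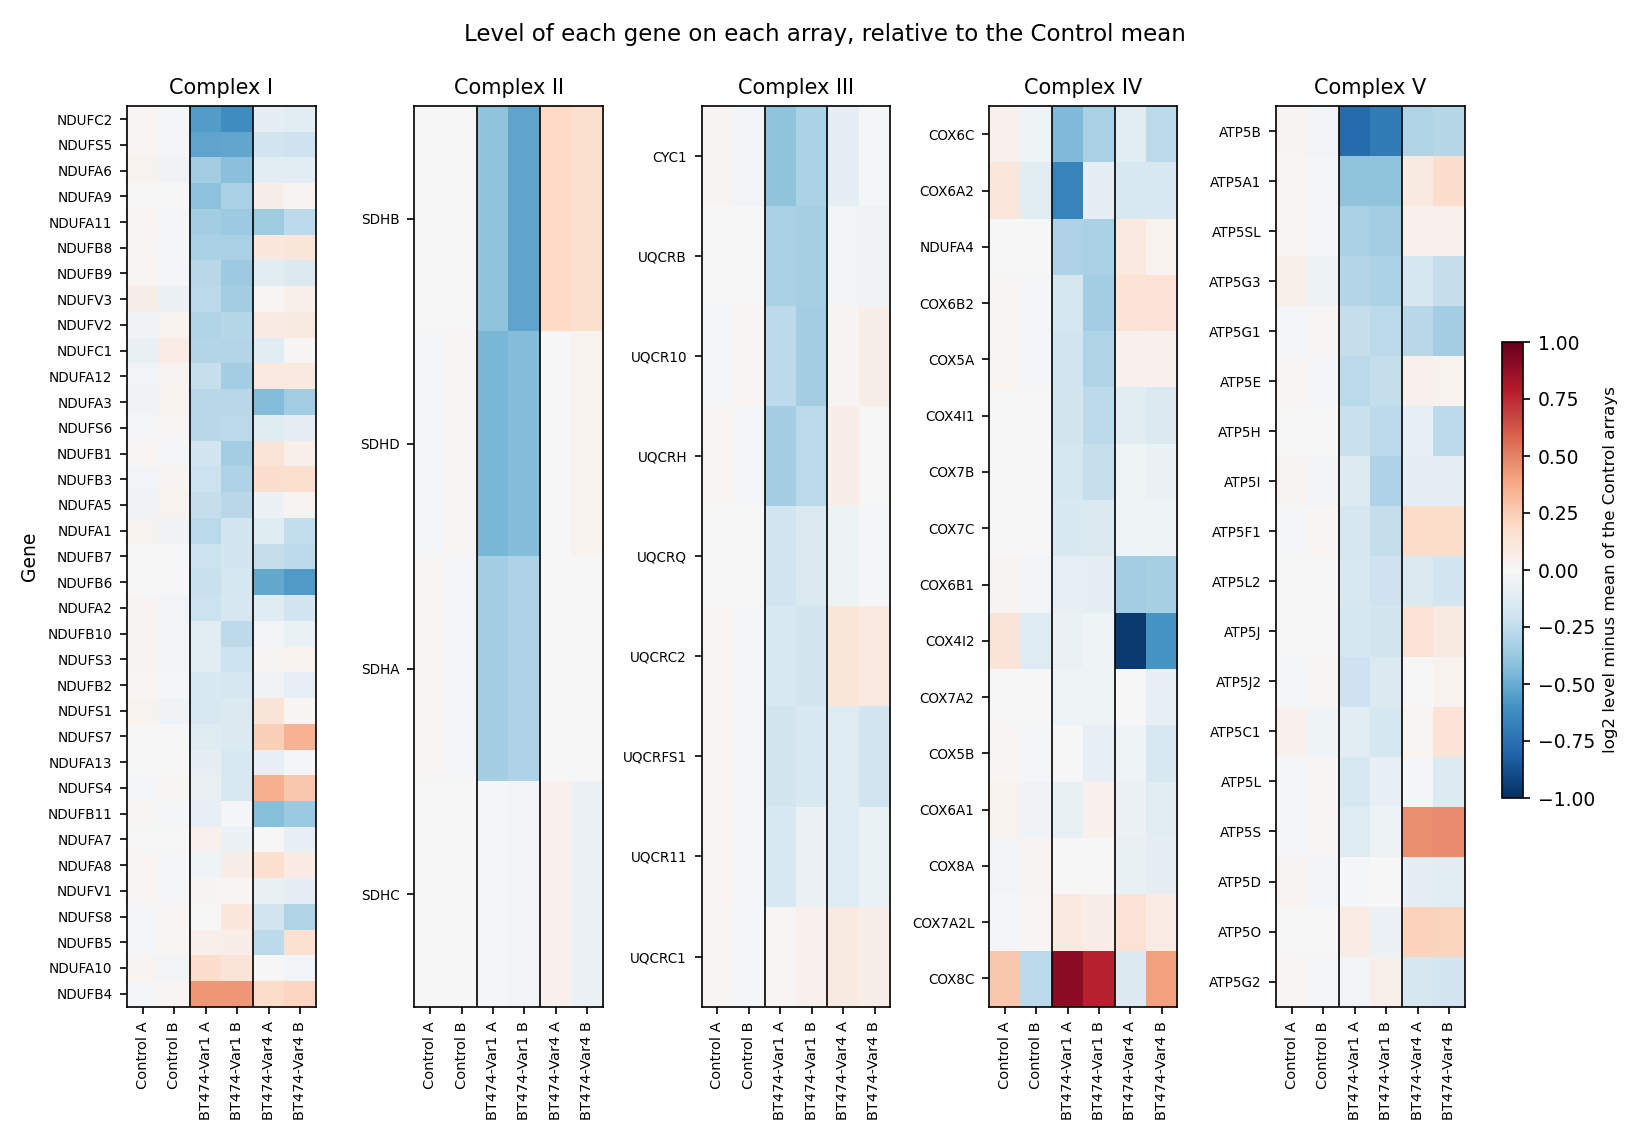
Level of the subunit genes described here on each of the 6 arrays, as the log2 difference from the mean of the 2 Control arrays, by complex and sorted by the difference in BT474-Var1 cells. The 2 BT474-Var1 columns are alike and mostly blue (lower), with ATP5B and NDUFC2 among the darkest and NDUFB4 red (higher). COX6A2, COX4I2 and COX8C are dim probes, with a wider spread between arrays.

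Complex IV had 5 of 16 genes lower in BT474-Var1 cells (COX4I1, COX5A, COX6C, COX7B and NDUFA4) and a median of -0.12. The median was -0.042 after quantile normalization, with 1 gene lower and 1 higher, and -0.179 over the probes well above background on all 6 arrays. The medians of the complexes were not tested against each other. NDUFA4 read 8.76 and 8.76 in Control, 8.45 and 8.43 in BT474-Var1 and 8.85 and 8.79 in BT474-Var4 cells, a fall of 0.32 in BT474-Var1 cells (SE 0.05, adjusted p = 0.0136) that was kept after quantile normalization. It was the only complex IV fall called under both scalings, and it was lost with any 1 Control or BT474-Var1 array left out and without the filter on dim probes, with adjusted p up to 0.101 over the alternatives. COX6C, an accessory subunit, read 7.89 and 7.80 in Control, 7.41 and 7.53 in BT474-Var1 and 7.74 and 7.58 in BT474-Var4 cells, a fall of 0.38 (adjusted p = 0.0298, and 0.0674 after quantile normalization).

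The hypoxia-switched isoforms were at the limit of detection. The NDUFA4L2 probe (hg19 chr12:57629358-57629546, minus strand) read -2.93 and -4.15 in Control, -5.77 and -5.07 in BT474-Var1 and -6.13 and -5.58 in BT474-Var4 cells. It was well above background on Control A alone and was therefore not tested. The Control mean was 1.40-fold above the lowest signal well above background on the BT474-Var1 arrays and 1.29-fold above that on the BT474-Var4 arrays. That mean includes Control B, which was not well above background. These values are therefore no lower bound, and detection rests on 1 array. The COX4I2 probe (hg19 chr20:30232674-30232732, plus strand) read -3.76 and -4.02 in Control, -3.96 and -3.93 in BT474-Var1 and -4.85 and -4.48 in BT474-Var4 cells, and was well above background on the Control arrays alone. The fitted difference was -0.06 for BT474-Var1 (adjusted p = 0.804) and -0.78 for BT474-Var4 cells (adjusted p = 0.031, and 0.116 after quantile normalization, range over the alternatives 0.0303 to 0.149). The Control mean was 1.01-fold above the lowest signal well above background on the BT474-Var4 arrays. That signal is no strict ceiling for an undetected probe. COX4I2 itself read -3.93 on BT474-Var1 B, above the lowest such signal of that array (-4.18), and was not well above background there. The constitutive COX4I1 (hg19 chr16:85834852-85838569, plus strand) was bright, at 6.88 and 6.88 in Control, 6.69 and 6.62 in BT474-Var1 and 6.77 and 6.73 in BT474-Var4 cells. Its fall of 0.22 in BT474-Var1 cells (adjusted p = 0.0377) was not called after quantile normalization (adjusted p = 0.173, range over the alternatives 0.000358 to 0.198). The mean of neither COX4I2 nor NDUFA4L2 was higher in a variant than in Control, although the ranges of COX4I2 in Control and BT474-Var1 cells overlapped.

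**Figure D3:**
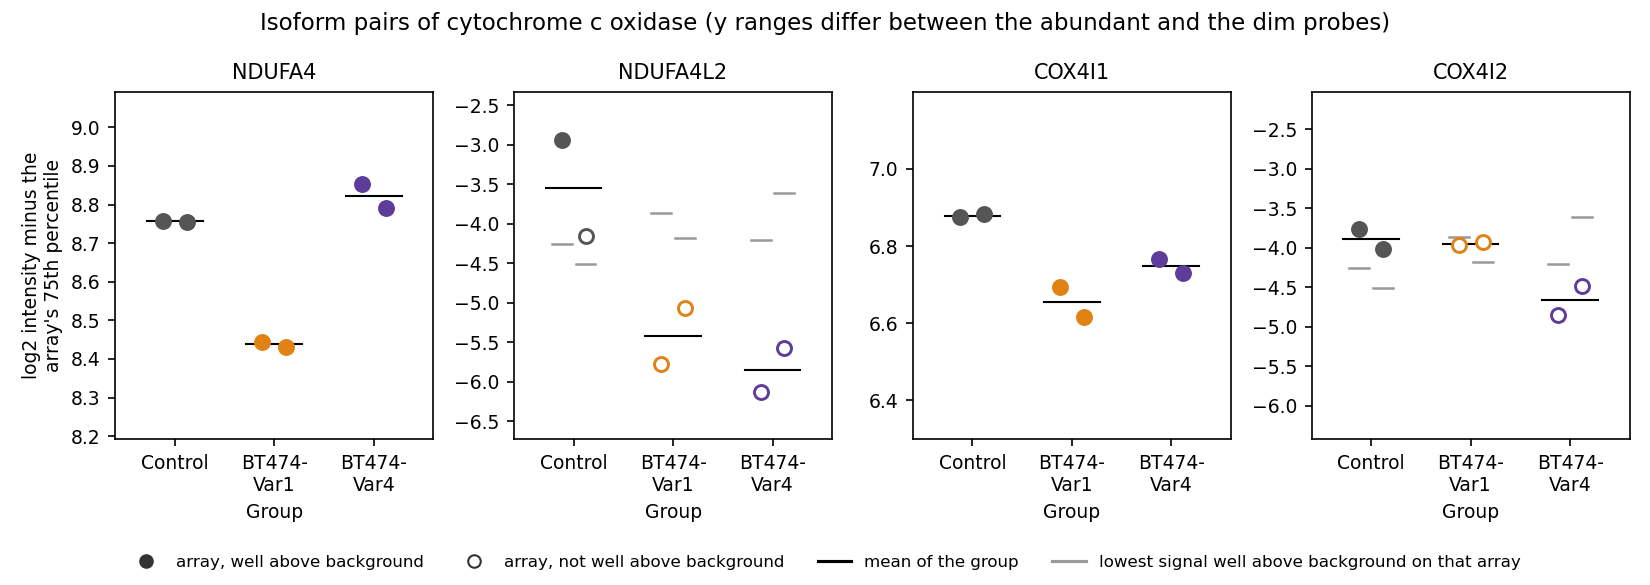
Levels of NDUFA4, NDUFA4L2, COX4I1 and COX4I2 on each array, as log2 intensity less the 75th percentile of the array. Filled points are well above background, open points are not, black bars are group means, and gray bars in the panels of the dim probes mark the lowest signal well above background on each array. NDUFA4L2 is filled on 1 of 6 arrays and COX4I2 on the 2 Control arrays.

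The tissue isoforms of complex IV are known as general, muscle or testis forms. The general forms COX6A1, COX7A2 and COX8A, with levels of 8.81 or more, 8.10 or more and 9.01 or more, were called in no comparison. The muscle form COX6A2 lay between -2.95 and -2.17 and was not called, and the muscle form COX7A1 and the testis form COX7B2 were well above background on no array. COX8C, a testis form, read -3.91 and -4.45 in Control, -3.29 and -3.41 in BT474-Var1 and -4.33 and -3.77 in BT474-Var4 cells. It was well above background on both arrays of BT474-Var1 cells and on 1 of Control. The fitted difference in BT474-Var1 cells was 0.83 (adjusted p = 0.0739). COX8C was tested only because of the BT474-Var1 arrays, where it was highest, so that the size of this difference is not known. COX7A2L, an assembly factor of supercomplexes, was at 0.08 in BT474-Var1 cells on its brightest probe and at -0.24 on another (adjusted p = 0.0305). COX6B2, a testis form, was well above background on all 6 arrays and had 1 probe at -0.26 that was not called and 1 that rose by 0.43 (adjusted p = 0.0112).

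In BT474-Var4 cells few subunit genes were called. Of the 83, 10 fell and 4 rose, or 12% and 4.82%, against 14.3% lower and 9.87% higher among all tested probes (24.2% in either direction, and 3.17% at 2-fold or more). The 10 include COX4I2, which was tested only because of its Control arrays. Its Control mean was only 1.01-fold above the lowest signal well above background on the BT474-Var4 arrays. The median difference was -0.043, beside -0.077 over all tested probes, and the median gene stood at -0.039 and -0.03 on the 2 BT474-Var4 arrays. The direction of this median turned with the scaling: after quantile normalization it was 0.06, with 10 genes higher (12%) and 6 lower (7.23%), beside 10.5% higher, 11% lower and a median of -0.033 over all tested probes. Over all 118 tested probes, 19 were called (7 higher, 12 lower), and 14 higher and 7 lower after quantile normalization. Without Control A or Control B limma called 0 probes (19 and 20 at an unadjusted p under 0.05), without BT474-Var4 A or BT474-Var4 B it called 3, and without either BT474-Var1 array 8.

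The falls in BT474-Var4 cells that were called under both scalings were NDUFA3, NDUFA11, NDUFB6 and NDUFB11 of complex I, COX6B1 of complex IV and ATP5G1 of complex V. NDUFB6, an accessory subunit of the membrane arm, read 4.20 and 4.21 in Control, 3.98 and 4.03 in BT474-Var1 and 3.70 and 3.64 in BT474-Var4 cells. It fell by 0.54 (SE 0.05, adjusted p = 0.00735), and its other probe also fell by 0.54 (adjusted p = 0.0128). The call of the brighter probe was lost without Control A, without Control B and with no filter on dim probes, with adjusted p up to 0.0676. NDUFB11, from the same arm, read 7.16 and 7.13, then 7.07 and 7.14, then 6.72 and 6.78, with both BT474-Var4 arrays below the other 4, and fell by 0.40 (adjusted p = 0.0148). COX6B1, an accessory subunit on the intermembrane side, read 6.83 and 6.78, 6.72 and 6.71, and 6.46 and 6.47, and fell by 0.34 (adjusted p = 0.0162). ATP5G1 fell by 0.32 (adjusted p = 0.0221). ATP5B fell by 0.29 (adjusted p = 0.0272), which was not called after quantile normalization (adjusted p = 0.0866, range over the alternatives 5.3e-05 to 0.158).

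The 4 rises in BT474-Var4 cells were NDUFB4, NDUFS4, NDUFS7 and ATP5S, and each was called under both scalings. ATP5S read 1.967 and 1.997 in Control, 1.85 and 1.93 in BT474-Var1 and 2.45 and 2.46 in BT474-Var4 cells, a rise of 0.47 (SE 0.05, adjusted p = 0.0102), while its other probe was at 0.12 and not called. NDUFS4, an accessory subunit of the matrix arm, read 4.60 and 4.65, 4.55 and 4.47, and 4.98 and 4.89, and rose by 0.31 (adjusted p = 0.0327). NDUFS7, a core subunit that carries an iron-sulfur cluster, rose by 0.29 (adjusted p = 0.0326). NDUFB4 rose by 0.20 with an adjusted p at the threshold (0.05 after rounding). The adjusted p of NDUFS4 and NDUFS7 reached 0.163 and 0.171 over the alternatives.

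The variants were then compared directly. Of the 83 genes, 34 were higher in BT474-Var4 cells and 7 were higher in BT474-Var1 cells, or 41% and 8.43%, against 20.4% and 20.8% of all tested probes (41.2% in either direction, and 6.86% at 2-fold or more). The median difference was 0.17, beside -0.035 over all tested probes and 0.041 over the 2132 bright probes, of which 28.8% were called higher. After quantile normalization the median was 0.139, with 32 genes higher (38.6%) and 6 lower (7.23%), beside 20.3% higher, 17.9% lower and a median of 0.018 over all tested probes, and 30 of the higher and 4 of the lower were shared with the first count. Of the 118 probes, 60 were called, and 33 to 38 with 1 array of either variant left out (38 without BT474-Var1 A, 35 without BT474-Var1 B, 33 without BT474-Var4 A and 35 without BT474-Var4 B). The Control arrays entered this comparison through the shared estimate of the spread, and with only the variant arrays fitted 48 probes were called.

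By complex, 15 genes were higher and 4 lower in complex I (median 0.18), 3 of 4 higher in complex II (0.394), 5 of 9 higher in complex III (0.275), 3 higher and 2 lower of 16 in complex IV (0.061) and 8 higher and 1 lower of 18 in complex V (0.204). Large differences were those of SDHB (0.64, SE 0.06, adjusted p = 0.00367), ATP5S (0.56, SE 0.05, adjusted p = 0.00362) and ATP5A1 (0.53, adjusted p = 0.0043), and these 3 were called under every alternative that was run. COX4I2, one of the 7 lower calls, was not well above background in either variant, so that its call gives no difference. Among the others lower in BT474-Var4 cells were NDUFB11 (-0.35, adjusted p = 0.011) and NDUFB6 (-0.34, adjusted p = 0.0107), both called under both scalings. Complex I thus held members that differed in both directions. NDUFC2 was lowest in BT474-Var1 cells on its brighter probe, and NDUFB6 and NDUFB11 were lowest in BT474-Var4 cells. The other NDUFC2 probe was not called between the variants (-0.02, adjusted p = 0.734), whereas the other NDUFB6 probe was also lower in BT474-Var4 cells (-0.29, adjusted p = 0.0328).

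**Figure D4:**
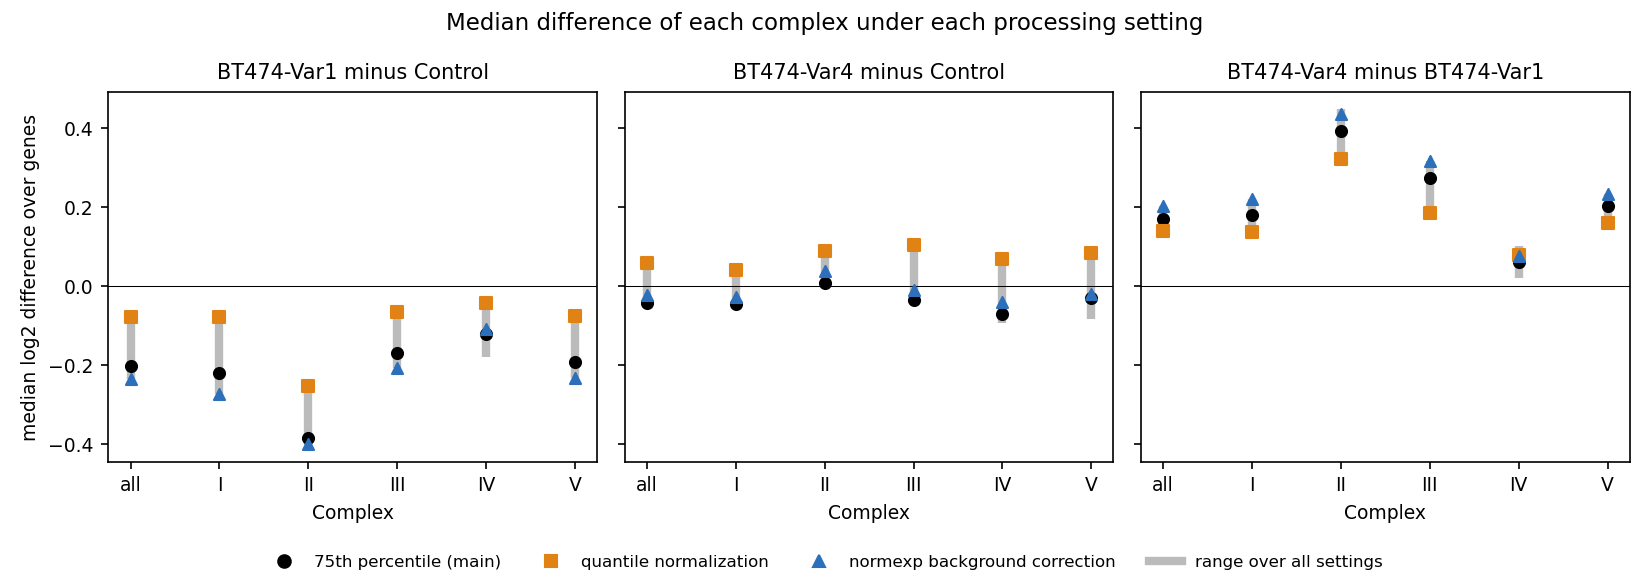
Median log2 difference over the genes of each complex for the 3 comparisons, under the 75th percentile shift, quantile normalization and normexp background correction (symbols), and its range over all settings that were run (gray bars). BT474-Var4 minus BT474-Var1 is above 0 for all complexes under all settings. BT474-Var4 minus Control lies on either side of 0 over all complexes, with -0.043 under the percentile shift and 0.06 after quantile normalization. The same holds for complexes I, III, IV and V, while complex II lies above 0 under all settings (0.006 to 0.089).

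Genes with several tested probes gave a check within the array. For 21 genes there were 28 further tested probes. These had the same call as the representative probe in 16 cases for BT474-Var1 minus Control, 24 for BT474-Var4 minus Control and 19 for BT474-Var4 minus BT474-Var1. In BT474-Var4 minus Control the shared call was no call, except for NDUFB6, which was lower on both its probes. The sign of the difference was shared in 18, 15 and 19 of the 28 cases, in the same order of comparisons. Opposite calls were made for NDUFV3 and UQCRB in BT474-Var1 cells and for COX6B2 and ATP5E between the variants. The second NDUFV3 probe rose by 0.35 in BT474-Var1 cells (adjusted p = 0.00995) where the brighter one fell by 0.31. The second ATP5E probe was well above background in Control and BT474-Var1 cells but not in BT474-Var4 cells. With the BT474-Var4 arrays set to no less than their lowest signal well above background, they were 1.87-fold below BT474-Var1 cells on that probe. This value is no strict bound. The bright probe was 0.29 higher in BT474-Var4 cells (adjusted p = 0.0124). The ATP5L2 probe may share signal with ATP5L, a close relative. Of the 8 antisense probes 7 were tested and none was called in BT474-Var1 cells, with differences from -0.20 to 0.25. The tested NDUFV2-AS1 probe rose by 0.77 in BT474-Var4 cells (adjusted p = 0.0128), and 1 of 4 NDUFA6-AS1 probes was different between the variants, at -0.40 for BT474-Var4 minus BT474-Var1 (adjusted p = 0.0184). Neither NDUFB2-AS1 probe was called in any comparison.

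The 11 measured subunits encoded by mitochondrial DNA, which the choice of members left out, were lower in BT474-Var1 cells in 7 cases (63.6%, against 20.3% of all tested probes) and higher in 1, with a median of -0.275 (-0.268 after quantile normalization). ND1, a core subunit of complex I, read 6.66 and 6.65 in Control, 5.45 and 5.50 in BT474-Var1 and 6.67 and 6.73 in BT474-Var4 cells, a fall of 1.18 (SE 0.05, adjusted p = 0.00269). ND2 fell by 0.64 (adjusted p = 0.00413). ND6, the only protein gene on the light strand of mitochondrial DNA, did the reverse, with -0.28 and -0.22, 0.84 and 0.77, and -0.67 and -0.78 in the same order of groups, a rise of 1.06 in BT474-Var1 cells (adjusted p = 0.00339) and a fall of 0.47 in BT474-Var4 cells (adjusted p = 0.0145). Between the variants 9 of the 11 were higher in BT474-Var4 cells and ND6 was lower, with a median of 0.322. Among all tested probes 20.4% were higher and 20.8% lower in this comparison.

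Genes that build or feed the complexes were read from lists chosen with these data already known. Over all tested probes, 20.3% were lower and 14.1% higher in BT474-Var1 cells, and 14.3% lower and 9.87% higher in BT474-Var4 cells. Between the variants 20.4% of all tested probes were higher and 20.8% lower in BT474-Var4 cells. Of 45 tested assembly factors, 27 (60%) fell in BT474-Var1 cells (median -0.276, and -0.155 after quantile normalization). In BT474-Var4 cells 9 fell and 2 rose (-0.035). Between the variants 26 were higher and 5 lower in BT474-Var4 cells (0.237). In BT474-Var1 cells TACO1, an activator of COX1 translation, fell by 0.72 (adjusted p = 0.0049) and COA6, a copper-handling factor of complex IV, by 0.60 (adjusted p = 0.00457). Of 21 genes of the tricarboxylic acid cycle and pyruvate entry, 14 fell (66.7%) and 2 rose in BT474-Var1 cells (median -0.286, and -0.2 after quantile normalization), and FH, fumarase, fell by 0.77 (adjusted p = 0.00384). Of 24 electron carriers and partners of the chain, 10 fell (41.7%, median -0.19, and -0.054 after quantile normalization), with CYCS, cytochrome c, down by 0.59 (adjusted p = 0.00519). Among 17 regulators of mitochondrial biogenesis, 4 fell (23.5%) and 2 rose (11.8%) in BT474-Var1 cells, near the shares of all tested probes (median -0.127, and -0.052 after quantile normalization), and 1 rose and 1 fell in BT474-Var4 cells. PPARGC1A, the coactivator PGC-1 alpha, read -1.14 and -1.03 in Control, -0.63 and -0.40 in BT474-Var1 and 0.16 and 0.06 in BT474-Var4 cells, and rose in both. TFAM, which packages and transcribes mitochondrial DNA, fell by 0.61 in BT474-Var1 cells (adjusted p = 0.0108).

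A list of genes linked to hypoxia and mitochondria had 11 tested members. In BT474-Var1 cells 3 rose (27.3%) and 2 fell (18.2%), against 14.1% and 20.3% of all tested probes. In BT474-Var4 cells 2 fell, where 14.3% of all tested probes were lower. These were MXI1 and COX4I2, which was not well above background there. PDK1, the kinase that shuts off pyruvate dehydrogenase, read 0.94 and 1.02 in Control, 2.66 and 2.67 in BT474-Var1 and 0.92 and 0.86 in BT474-Var4 cells, a rise of 1.68 (adjusted p = 0.0023). BNIP3, a mitophagy receptor, rose by 1.72 (adjusted p = 0.00238) and MXI1, a MYC antagonist, by 0.99 (adjusted p = 0.00355). These rises in BT474-Var1 cells stood beside NDUFA4L2, not well above background on either BT474-Var1 array, and COX4I2, with a fitted difference of -0.06, which belong to the same list. The iron-sulfur scaffold ISCU and the import factor CHCHD4 fell by 0.43 and 0.58 (adjusted p = 0.00801 and 0.00998).

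Promoters were read from RefSeq (build GRCh38.p14), 250 bases before to 50 after the start, for the 67 of 83 subunit genes that matched. The shares of promoters that held short motifs on either strand are given for the 67 genes and for all 27305 promoters. The core of the hypoxia response element was searched as ACGTG (25.4% against 21.6%) and GCGTG (46.3% against 36.3%), the NRF1 site as GCGCA, any base and GCGC (23.9% against 6.28%), the ETS site bound by GABPA as CCGGAAG (28.4% against 10.7%) and the YY1 site as AAGATGG (23.9% against 6.06%). The median G and C content was 61% for the 67 genes and 58.3% for all promoters. Among the 27 matched genes that fell in BT474-Var1 cells 25.9% held the NRF1 letters, 18.5% the ETS letters and 22.2% the YY1 letters, and among the other 40 the shares were 22.5%, 35% and 25%. A match is a description of letters and not a site. Promoters are shown for NDUFA4L2, the isoform at the limit of detection, for COX4I1, the constitutive isoform, for SDHB, which fell in BT474-Var1 cells, and for NDUFB4, which rose, with motif letters in capitals and each sequence in the direction of the gene. NDUFA4L2 (chr12:57240713-57241012, minus strand) has 2 GCGTG matches, COX4I1 (chr16:85799445-85799744, plus strand) 1 ETS match, SDHB (chr1:17053983-17054282, minus strand) 1 GCGTG, 1 ETS and 1 YY1 match, and NDUFB4 (chr3:120596086-120596385, plus strand) 3 NRF1 matches.
NDUFA4L2: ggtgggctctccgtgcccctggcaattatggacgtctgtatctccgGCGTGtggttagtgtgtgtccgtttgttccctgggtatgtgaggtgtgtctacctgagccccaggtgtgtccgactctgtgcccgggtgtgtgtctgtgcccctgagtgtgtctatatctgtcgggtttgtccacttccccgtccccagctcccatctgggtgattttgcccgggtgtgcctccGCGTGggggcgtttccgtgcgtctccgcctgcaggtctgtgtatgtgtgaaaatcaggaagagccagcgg
COX4I1: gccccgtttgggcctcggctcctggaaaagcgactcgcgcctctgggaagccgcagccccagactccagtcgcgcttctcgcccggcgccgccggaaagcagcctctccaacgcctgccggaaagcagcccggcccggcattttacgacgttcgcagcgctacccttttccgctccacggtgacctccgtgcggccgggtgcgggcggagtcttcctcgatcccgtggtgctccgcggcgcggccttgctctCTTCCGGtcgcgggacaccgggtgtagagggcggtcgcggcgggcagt
SDHB: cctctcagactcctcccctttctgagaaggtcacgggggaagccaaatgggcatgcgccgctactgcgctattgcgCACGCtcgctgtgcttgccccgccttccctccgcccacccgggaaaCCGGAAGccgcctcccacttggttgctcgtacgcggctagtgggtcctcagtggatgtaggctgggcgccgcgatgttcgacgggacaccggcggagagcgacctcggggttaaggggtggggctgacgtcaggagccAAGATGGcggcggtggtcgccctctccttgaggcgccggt
NDUFB4: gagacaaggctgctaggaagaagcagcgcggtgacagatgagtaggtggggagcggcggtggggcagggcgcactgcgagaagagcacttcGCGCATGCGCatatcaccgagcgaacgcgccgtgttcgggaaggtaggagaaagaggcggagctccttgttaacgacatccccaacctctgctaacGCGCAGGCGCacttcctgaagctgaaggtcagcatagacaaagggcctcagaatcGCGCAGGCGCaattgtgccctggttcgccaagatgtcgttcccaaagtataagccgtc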

How the data were processed

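Cy3-labeled total RNA of the 3 BT474 populations was measured on one-color Agilent arrays, 2 per population. Spots were quantified by the authors with Feature Extraction 11.5.1.1, and the deposited intensity values are background-subtracted and not normalized between arrays. The deposited table of log2 values, shifted by the authors to each array's 75th percentile in GeneSpring, served as an alternative. Here, log2 intensities less the 75th percentile of non-control probes were averaged over the spots of a probe, without outlier spots. Group means over the 6 arrays were fitted with limma 3.58.1 (R 4.3.3), and p-values were adjusted by Benjamini-Hochberg over the 31858 probes that both arrays of some group had well above background. The number of arrays limits the precision. Genes described singly were NDUFA4, NDUFA4L2, COX4I1, COX4I2, the complex IV and subunit c isoforms, per complex and variant the 2 largest rises and falls called, and the 3 largest differences each way between the variants. Others were chosen after their values were seen. Members and lists were chosen with earlier results of these data known. Probe positions are hg19, from the file headers. The procedure was tested on simulated data. One item that the rule for single genes would name is not reported here, but it is kept in the counts and medians.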

Additional observations from a re-analysis of the deposited data

How the results depend on the processing

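For the 118 tested probes, the count called in BT474-Var1 minus Control was 52, and 84 with normexp background correction, 29 with quantile normalization, 4 without a filter on dim probes, 81 with a trend and robust estimation, and 8 to 39 with each array left out. In BT474-Var4 minus Control it was 19, and 35 with normexp, 0 without the filter (18 at an unadjusted p under 0.05), 43 with a trend and robust estimation, 8 with only the groups compared, and 0 to 8 with each array left out. In BT474-Var4 minus BT474-Var1 it was 60, and 11 without the filter and 33 to 48 with each array left out. The median difference of the 83 genes in BT474-Var1 minus Control (-0.202) was -0.235 with normexp, -0.078 with quantile normalization, -0.185 with the mean over a gene's probes, and -0.212 to -0.185 with each array left out. In BT474-Var4 minus Control (-0.043) it was -0.023 with normexp, 0.06 with quantile normalization, and -0.043 to -0.03 with each array left out. In BT474-Var4 minus BT474-Var1 (0.17) it was 0.203 with normexp, 0.139 with quantile normalization, 0.19 with a filter on all 6 arrays, 0.141 with the mean over a gene's probes, and 0.148 to 0.17 with each array left out. Apart from the replicate block, the other alternatives, including the deposited table and the methods' one-way analysis of variance, kept each of these counts within 1.5 times and each median within its replicate spread. The difference of UQCRB in BT474-Var1 minus Control turned to 0.05 when its 2 opposed probes were averaged. The median of complex I, II, III, IV and V kept its sign under all alternatives in BT474-Var1 minus Control and in BT474-Var4 minus BT474-Var1. The unfiltered fit adds dim probes to the set that is tested, and the cause of the other shifts was not tested. The share called among all tested probes was computed only for the main fit and quantile normalization. Whether the counts under the other settings are particular to these members therefore cannot be read from them. Of 44 called differences of the named genes, 43 were kept with the deposited table, 31 with quantile normalization, 40 with the one-way analysis of variance and 9 without the filter.

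The letters A and B did not pair the samples: deviations of same-lettered arrays from their group means correlated at -0.012, 0.045 and -0.015. With the letter as a replicate block, 37, 7 and 52 probes were called in the 3 comparisons.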
